A study of Mus musculus with 16 samples.

Results

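The data described here are the transcriptomes of primary mouse hepatocytes cultured overnight with or without itaconate and without added lipid. The comparison rests on 8 of the 16 libraries of the series, 4 from itaconate-treated and 4 from untreated hepatocytes, chosen by their treatment labels. The cells of both groups came from the livers of wild-type mice, which per the study's methods were adult males of the C57BL/6J strain, and were kept in DMEM with serum, insulin, transferrin and selenium. Itaconate was given as its sodium salt at 10 mM, and no salt control is among the groups, so that itaconate and the added sodium cannot be told apart. The other 8 libraries, from cells given a defined lipid mixture diluted 10-fold with or without itaconate, were used to estimate the spread and to set values side by side. Each group has 1 library of each replicate letter, A to D, and neither the labels nor the methods say which animals or cultures a letter stands for. The p values given here therefore measure the spread between these libraries, which may be technical in part. The question behind the comparison is which genes respond to itaconate, those of lipid metabolism included.

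Itaconate is a dicarboxylic acid that activated macrophages make from the citric acid cycle intermediate cis-aconitate, with the enzyme encoded by *Irg1* (also *Acod1*). It competes with succinate at succinate dehydrogenase, has been reported to react with cysteines of proteins such as Keap1, the inhibitor of the antioxidant factor Nrf2, and to dampen interferon and cytokine responses of macrophages. The study detected no Nrf2 activation in hepatocytes. It names as a possible reason that unmodified itaconate, used here, and its derivatives can act in opposite ways on stress and immune responses. Hepatocytes, the main cells of the liver, take up, store, oxidise and export lipid, make cholesterol and bile acids, and secrete most plasma proteins.

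Total expected counts ran from 22346049 to 28619798 in the untreated and from 27211869 to 35512004 in the itaconate-treated libraries (two-sided exact permutation test, p = 0.343, where the smallest p that 4 against 4 libraries allow is 0.02857). Levels are given as CPM, a gene's counts scaled to the total of its library, with TMM factors. Summed over 7 hepatocyte markers such as *Alb* (albumin), *Ttr* and *Hnf4a*, they were high in both groups (44190 ± 6193 and 44472 ± 6317 CPM, SD, n = 4, unscaled). Markers of other liver cells were low but not absent. Macrophage markers summed to 240 to 384 CPM per library, endothelial markers to 29.3 to 59.9, stellate markers to 27.5 to 32.8, and lymphocyte and neutrophil markers to less than 1 CPM, with *Cd3g*, *Cd8a*, *Nkg7* and *Ly6g* at 0 counts in all 8 libraries. Single genes gave most of 2 of these sums. *Cd68* was at 193 CPM in untreated and 160 CPM in itaconate-treated hepatocytes, and *Reln* of the stellate list at 20.9 and 21.5 CPM. Only 3 of the 17 stellate markers were abundant enough to test, and *Acta2* was at 0 counts in all 8 libraries. In the cholangiocyte list *Spp1* and *Sox9*, which cultured hepatocytes also express, gave most of the sum of 646 to 1194 CPM, while *Cftr*, *Sctr* and *Tff2* were at 0 counts in all 8 libraries.

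Itaconate was followed by many small changes and few large ones. In edgeR's quasi-likelihood test with treatment and replicate letter as terms, 573 of 11675 genes (4.91%) passed an adjusted p of 0.05, and such genes are called changed below. Of these, 229 rose (1.96%) and 344 fell (2.95%). The median log2 fold change was 0.24 for genes that rose and -0.37 for genes that fell, and 90% of all genes tested lay between -0.32 and 0.24. A change of at least 1.5-fold was reached by 7 genes that rose (0.06%) and by 75 that fell (0.642%). A change of at least 2-fold was reached by 1 gene that rose and by 13 that fell. The gene that rose, named after its value was seen, was the pseudogene *Cyp2c53-ps*, at 0.329 ± 0.0883 CPM in untreated and 0.735 ± 0.246 CPM in itaconate-treated hepatocytes (SD, n = 4), under 1 CPM in both groups. It met the filter, a mean of 1 CPM over the 16 libraries, only through the libraries with lipid. Its adjusted p was 0.0446, and it was called in 9 of 17 alternative fits. All but 1 of the 229 genes were higher in every letter, and all but 1 of the 344 were lower in every letter, where 18.3% of all genes tested were higher and 19% lower in every letter. The 4 itaconate libraries did not overlap the 4 untreated ones for 131 of the genes that rose and 158 of those that fell. Over all genes tested 879 (7.53%) did not overlap, 428 (3.67%) above and 451 (3.86%) below.

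**Figure D1:**
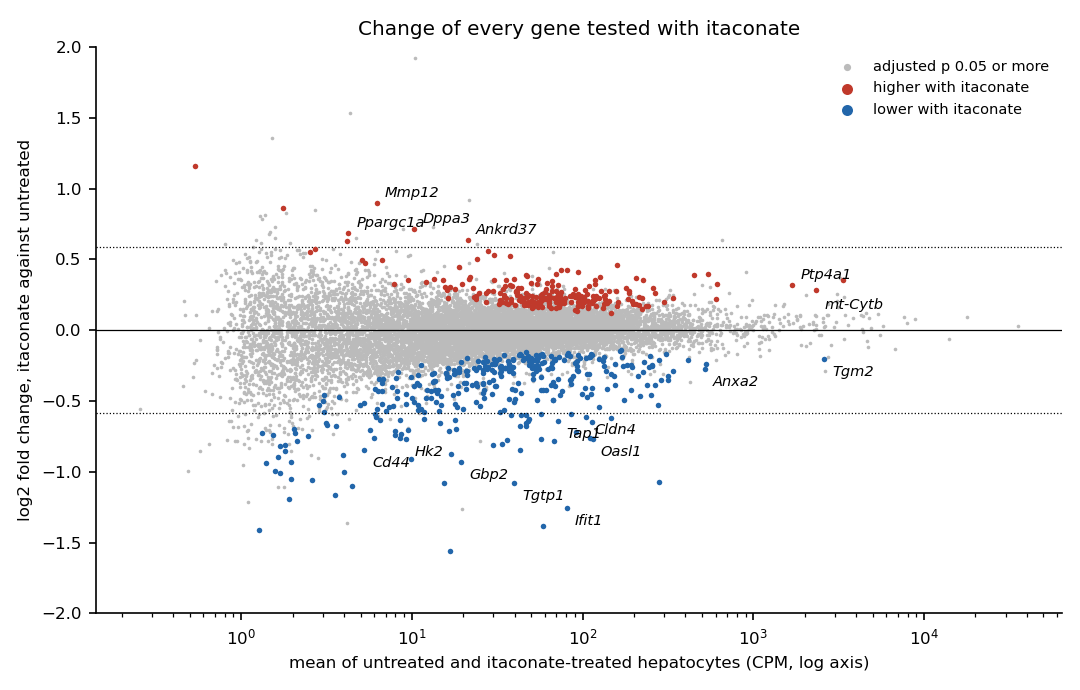
Log2 fold change of each gene tested (vertical axis) against its mean level in CPM (horizontal log axis), with genes that rose in red, genes that fell in blue, genes not called in grey, and dotted lines at 1.5-fold. The 573 called genes lie mostly inside the dotted lines, with 75 below the lower and 7 above the upper line, and 2 genes that were not called lie outside the axis.

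The count of changed genes depended on how the spread was estimated. Without the replicate letter as a term 23 genes were called, 6 of them higher, and a model of the 8 untreated and itaconate libraries alone called 1859 (15.9%). Of these 946 were higher (8.1%) and 913 lower (7.82%), and all 573 were among them. Without itaconate replicate C the count was 149, without untreated replicate A 267, and without itaconate replicate A it was highest at 394. Of the 573 genes, 22 were called in each of 17 alternative fits. The 16 of them outside the named-gene rule (*Arhgap42*, *Mocs2*, *Nr2c2*, *Btg3*, *Trpm7*, *Ifit3b*, *Ifit3*, *Dhx58*, *Tlr3*, *H2-T-ps*, *Hap1*, *Plekhh1*, *Bcap29*, *Pigs*, *Wdr11* and *Unc5b*) were named after their values were seen. Among those that rose, *Nr2c2* (an orphan nuclear receptor) had a log2 fold change of 0.43, *Arhgap42* (a GTPase-activating protein) 0.41, *Mocs2* (molybdenum cofactor synthesis) 0.38, *Btg3* (an antiproliferative protein) 0.33 and *Trpm7* (a magnesium channel with a kinase domain) 0.31. The 16 that fell ranged from -1.56 for *Ifit3b* to -0.31 for *Unc5b*, a netrin receptor. With *Ifit3b*, *Ifit3* and *Oasl1* are antiviral genes induced by interferon, *Dhx58* and *Tlr3* sense double-stranded RNA, *Trex1* encodes a DNA exonuclease and *Tap1* transports peptides for MHC class I. *Cldn4*, a tight junction claudin, *Hap1*, *Asap3*, *Plekhh1*, *Bcap29*, *Pigs* and *Wdr11* fell too, as did the pseudogene *H2-T-ps*, which can share reads with other MHC class I genes. *Ifit3* and *Ifit3b* are near copies that can share reads as well.

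The largest rises and falls below were picked among called genes with all 4 letters in 1 direction, so the rule itself set the agreement of their letters. Among such genes with at least 5 CPM outside the fatty acid, Nrf2 and interferon lists, the largest rise was in *Mmp12* (macrophage elastase, a matrix metalloproteinase; ENSMUSG00000049723.14, plus strand of chromosome 9, 7344381 to 7369499). It was at 4.03, 4.81, 5.30 and 3.07 CPM in untreated libraries A to D and at 7.29, 10.8, 9.07 and 5.33 CPM in itaconate-treated libraries A to D. The groups did not overlap, and every letter rose (log2 fold change 0.90, standard error 0.15, adjusted p = 0.00271). *Dppa3* (known from germ cells and early embryos, where it protects DNA methylation; ENSMUSG00000046323.8, plus strand of chromosome 6, 122626410 to 122630272) was at 9.32, 11.4, 7.01 and 3.60 CPM without and 17.4, 14.6, 11.7 and 7.03 CPM with itaconate. Its groups overlapped, with letter D lowest in both, and it was higher in each letter (log2 fold change 0.72, standard error 0.14, adjusted p = 0.00987). *Ankrd37*, an ankyrin repeat protein known as a target of the hypoxia factor HIF-1 (ENSMUSG00000050914.16, minus strand of chromosome 8, 45996902 to 46005707), was at 16.7, 15.3, 18.8 and 16.0 CPM in untreated libraries and at 28.4, 24.8, 26.2 and 23.9 CPM with itaconate, with no overlap (log2 fold change 0.63, standard error 0.16, adjusted p = 0.0288). *Olfml2b*, a secreted olfactomedin-like matrix protein, had levels of 15.1, 24.6, 27.4 and 24.0 CPM without and 25.4, 32.3, 40.1 and 35.6 CPM with itaconate, higher in each letter while the groups overlapped (log2 fold change 0.56, standard error 0.13, adjusted p = 0.0215).

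The other largest rises were smaller. *Agfg2*, an Arf GTPase-activating protein, rose from 30.7 ± 3.95 to 44.1 ± 6.62 CPM (SD, n = 4, log2 fold change 0.52, adjusted p = 0.00121). *Ppl* (periplakin, which ties intermediate filaments to junctions) rose from 20.04 ± 6.48 to 28.3 ± 9.17 CPM (log2 fold change 0.50, adjusted p = 0.00554). *Lyz2* (lysozyme of macrophages) rose from 5.56 ± 1.01 to 7.86 ± 1.67 CPM (log2 fold change 0.50, adjusted p = 0.0166). *Slc43a1*, a transporter of neutral amino acids, was at 4.20 CPM in untreated and 6.00 CPM in itaconate-treated hepatocytes (log2 fold change 0.50, adjusted p = 0.0220). *Rnd3*, a small GTPase, was abundant by comparison and rose from 125, 129, 143 and 140.3 CPM to 166, 174, 207 and 193 CPM (log2 fold change 0.46, adjusted p = 0.00941), above all untreated libraries in each. *Zfp354a* (a zinc finger protein, log2 fold change 0.47, adjusted p = 0.0283) and *Depdc7* (log2 fold change 0.44, adjusted p = 0.0305) were among the largest rises as well. Of these genes, *Mmp12*, *Dppa3*, *Agfg2* and *Ppl* were called with each of the 8 libraries left out in turn. *Rnd3* was not called without itaconate replicate C (adjusted p = 0.0616), and *Ankrd37* was not called with any 1 library left out (at most 0.0853). The calls of *Olfml2b*, *Lyz2*, *Slc43a1*, *Zfp354a* and *Depdc7* ended in 5 to 7 of the 8, with adjusted p up to 0.145 for *Zfp354a*.

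RefSeq promoter windows of 300 bases that span the transcription start (GRCm38.p6) were at hand for 9151 of the 11675 genes tested (78.4%). They are shown for 4 genes, the 2 largest rises and the 2 largest falls with a window among genes of at least 5 CPM outside the 3 lists, so that the sequence stands beside the values. Motifs searched on both strands were GAAANNGAA (an interferon element, in 8.56% of all 32851 windows), TGANTCA (AP-1, 7.81%), TGATGNAA (ATF4, 3.97%), GGAANNNCC (NF-kB, 18.5%) and TGACNNNGC (an antioxidant element, 12.4%). AP-1, ATF4 and antioxidant motifs share their first letters TGA and may overlap, and capitals mark a match. The windows of *Mmp12*, at chr9:7344147-7344446 (plus strand), and of *Ankrd37*, at chr8:45999801-46000100 (minus strand), held none of these motifs. *Mmp12* has a second window in the table, not shown.
Mmp12: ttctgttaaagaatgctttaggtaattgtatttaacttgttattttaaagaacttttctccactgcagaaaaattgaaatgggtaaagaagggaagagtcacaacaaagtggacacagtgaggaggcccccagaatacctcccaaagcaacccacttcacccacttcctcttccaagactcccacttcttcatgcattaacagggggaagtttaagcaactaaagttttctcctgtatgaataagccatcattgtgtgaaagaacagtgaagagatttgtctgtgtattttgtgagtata
Ankrd37: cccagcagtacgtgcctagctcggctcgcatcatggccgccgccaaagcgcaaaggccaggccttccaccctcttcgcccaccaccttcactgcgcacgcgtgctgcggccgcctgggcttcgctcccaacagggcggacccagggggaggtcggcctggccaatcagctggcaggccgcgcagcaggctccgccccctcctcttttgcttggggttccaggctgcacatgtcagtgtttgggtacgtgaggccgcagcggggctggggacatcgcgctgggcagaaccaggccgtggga
Of the 2 genes that fell, the window of *Tgtp1*, at chr11:48992197-48992496 (minus strand), had an interferon element at position 174 and an NF-kB motif at position 130, counted from 1 at the 5′ end. The window of *Gbp2*, at chr3:142620413-142620712 (plus strand), had an interferon element at position 193, an AP-1 motif at 149 and an NF-kB motif at 258.
Tgtp1: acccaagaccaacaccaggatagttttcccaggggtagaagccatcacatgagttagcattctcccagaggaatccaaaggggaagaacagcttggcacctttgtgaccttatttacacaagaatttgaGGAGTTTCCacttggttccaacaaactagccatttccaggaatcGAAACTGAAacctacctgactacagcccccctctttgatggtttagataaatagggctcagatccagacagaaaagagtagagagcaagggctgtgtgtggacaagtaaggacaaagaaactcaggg
Gbp2: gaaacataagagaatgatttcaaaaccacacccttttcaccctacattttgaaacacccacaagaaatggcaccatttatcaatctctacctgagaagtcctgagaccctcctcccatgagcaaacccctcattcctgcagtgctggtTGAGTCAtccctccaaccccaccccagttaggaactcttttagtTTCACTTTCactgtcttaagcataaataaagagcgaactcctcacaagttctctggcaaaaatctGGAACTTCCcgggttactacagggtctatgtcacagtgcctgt
These matches are descriptions of letters in 4 windows, and no comparison of the genes that rose and fell as groups was made.

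*Tgtp1* and *Gbp2* encode GTPases that interferons induce and that act against intracellular pathogens. *Tgtp1* (ENSMUSG00000078922.9, minus strand of chromosome 11, 48985327 to 48994172), which can share reads with its near copy *Tgtp2*, was at 59.9, 34.0, 46.3 and 74.1 CPM in untreated libraries A to D and at 34.96, 16.9, 18.04 and 31.8 CPM with itaconate. It was lower in each letter although the groups overlapped (log2 fold change -1.08, standard error 0.12, adjusted p = 0.000120). *Gbp2* (ENSMUSG00000028270.12, plus strand of chromosome 3, 142620602 to 142638008) fell from 37.5, 19.1, 18.5 and 26.8 CPM to 20.2, 12.5, 8.74 and 12.4 CPM (log2 fold change -0.93, standard error 0.11, adjusted p = 0.000148), also lower in each letter with overlapping groups. *Tor3a*, a torsin ATPase of the endoplasmic reticulum, was at 44.0, 28.7, 37.5 and 42.5 CPM without and 26.0, 17.6, 18.9 and 24.3 CPM with itaconate, and its groups did not overlap (log2 fold change -0.81, standard error 0.096, adjusted p = 0.000185). *Hk2* (ENSMUSG00000000628.10, minus strand of chromosome 6, 82725025 to 82774454), the hexokinase of muscle, fat and dividing cells that phosphorylates glucose, was at 11.8, 12.6, 10.2 and 11.9 CPM in untreated and 5.80, 7.91, 7.23 and 6.40 CPM in itaconate-treated libraries. All 4 itaconate libraries were below all untreated ones (log2 fold change -0.77, standard error 0.15, adjusted p = 0.00854).

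The other large falls were in genes of different kinds. *Nt5e* (CD73, which makes adenosine outside the cell) was at 14.7, 10.8, 5.55 and 12.0 CPM without and 10.0, 6.02, 2.97 and 6.95 CPM with itaconate (log2 fold change -0.74, adjusted p = 0.0270), with letter C lowest in both groups. *Lama3*, a laminin chain of basement membranes, fell from 10.0 ± 3.26 to 5.99 ± 2.29 CPM (SD, n = 4, log2 fold change -0.74, adjusted p = 0.00949). *Slc4a11*, a membrane transporter, fell from 10.7 ± 1.63 to 6.34 ± 1.78 CPM (log2 fold change -0.76, adjusted p = 0.0446). *Rin1*, an effector of Ras, fell from 9.86 ± 2.46 to 6.04 ± 1.89 CPM (log2 fold change -0.71, adjusted p = 0.0362). *Asap3*, an Arf GTPase-activating protein, had 27.2, 19.4, 21.1 and 21.9 CPM in untreated and 16.5, 11.8, 13.3 and 13.7 CPM in itaconate-treated libraries, without overlap (log2 fold change -0.70, adjusted p = 0.000387). *Trex1*, which degrades DNA in the cytosol, had 57.4, 42.3, 53.6 and 56.9 CPM without and 37.4, 29.1, 29.3 and 35.6 CPM with itaconate (log2 fold change -0.67, adjusted p = 3.82e-06). Also among the 12 were *Tmem106a* (log2 fold change -0.71, adjusted p = 0.00941) and *Lce1d* (log2 fold change -0.71, adjusted p = 0.0152), a late cornified envelope gene with close relatives that can share reads. Of the 12 falls, *Tgtp1*, *Gbp2*, *Tor3a*, *Hk2*, *Lama3*, *Tmem106a*, *Asap3* and *Trex1* were called with each library left out in turn. *Slc4a11* and *Rin1* kept the call in 1 of the 8, *Nt5e* in 2 and *Lce1d* in 3, with adjusted p up to 0.188 for *Slc4a11* without itaconate replicate C.

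**Figure D2:**
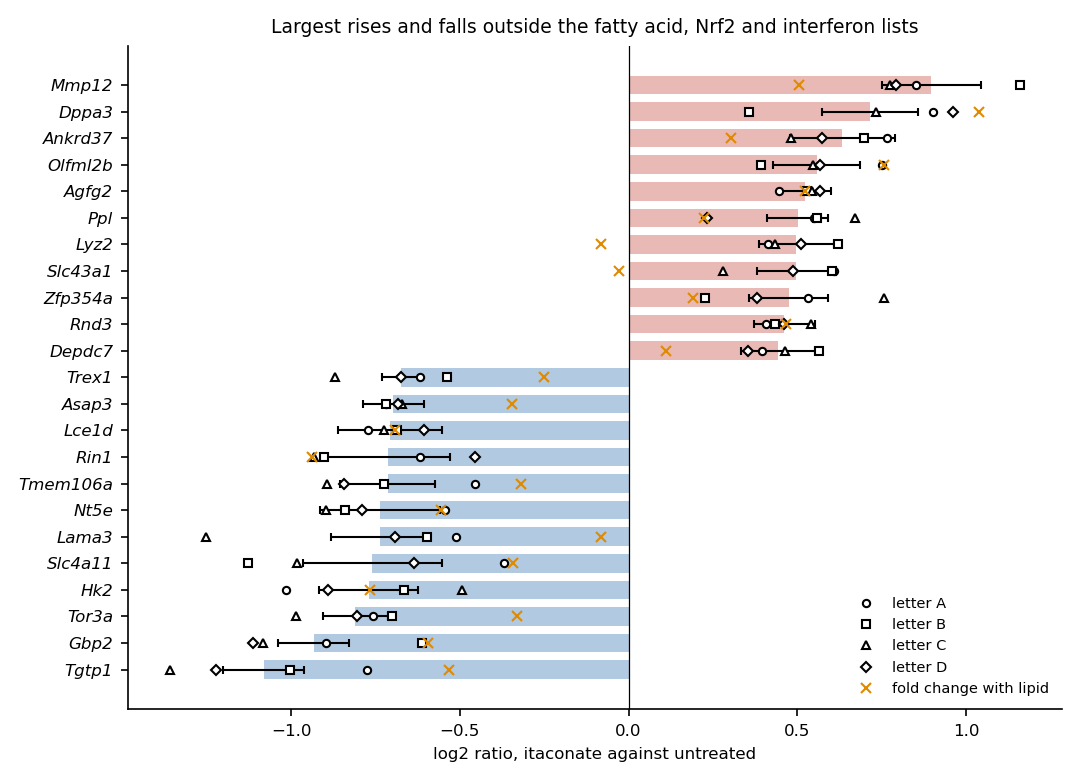
Log2 ratio of itaconate-treated to untreated hepatocytes for 11 of the largest rises and the 12 largest falls, with the model's estimate as a bar, its standard error as a line, the 4 replicate letters as symbols and the fold change in the presence of lipid as a cross. Each letter lies on the same side of 0 as its bar in all 23 genes, which the rule for choosing them required. The crosses of *Lyz2* and *Slc43a1* lie on the other side.

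**Figure D3:**
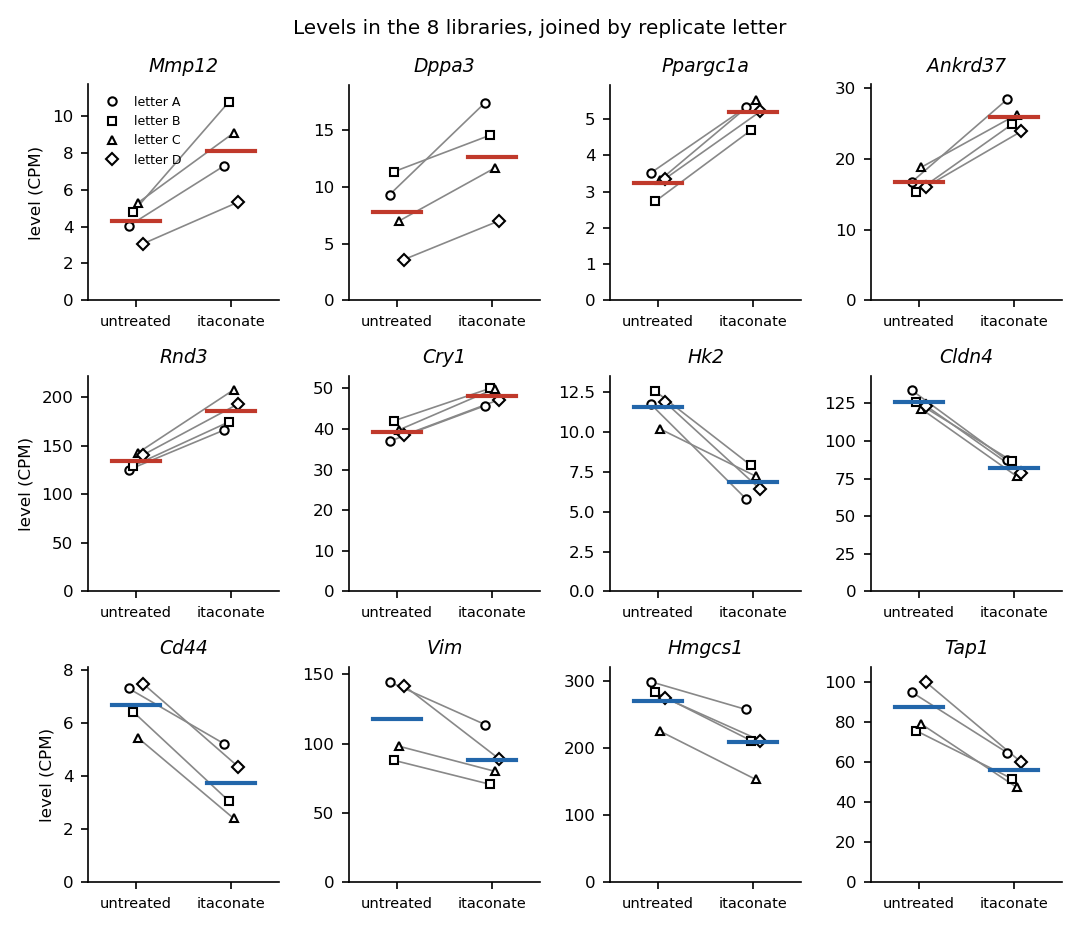
Level in CPM (vertical axes from 0) of 12 genes in the 4 untreated and 4 itaconate-treated libraries, joined by replicate letter, with group means as thick bars. *Hk2*, *Cldn4*, *Cd44* and *Tap1* have all itaconate libraries below all untreated ones, and *Ppargc1a*, *Ankrd37*, *Rnd3* and *Cry1* have them all above.

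In absolute terms, and again outside those 3 lists, the largest gains were in abundant genes. The mitochondrial gene *mt-Cytb* (cytochrome b of respiratory complex III) went from 2108 ± 88.0 to 2578 ± 385 CPM (SD, n = 4), with itaconate replicate A highest at 3109 CPM. *Ptp4a1*, a protein tyrosine phosphatase (ENSMUSG00000117310.1, minus strand of chromosome 1, 30940302 to 30949770, one of a pair of genes with this symbol), was at 1548, 1389, 1533 and 1508 CPM in untreated and 1868, 1764, 1977 and 1852 CPM in itaconate-treated libraries (log2 fold change 0.32, adjusted p = 0.00925). *Sat1*, which acetylates polyamines for their breakdown, rose from 433, 408, 369 and 338 CPM to 529, 543, 500.3 and 448 CPM (log2 fold change 0.39, adjusted p = 0.00211). *Aqp8*, an aquaporin of hepatocytes, rose from 504, 453, 511 and 409 CPM to 604, 649.9, 665 and 552 CPM (log2 fold change 0.40, adjusted p = 0.0250). None of these 3 overlapped between the groups. The largest losses outside those lists were in *Tgm2*, *Anxa2*, *Ly6e*, *Clic4* and *H2-T22*. *Tgm2*, a transglutaminase that cross-links proteins, fell from 2779 ± 198 to 2412 ± 179 CPM (log2 fold change -0.20, adjusted p = 0.0492). *Anxa2*, an annexin, fell from 569, 562, 577 and 567 CPM to 487, 484, 445 and 466 CPM (log2 fold change -0.27, adjusted p = 0.0127), with no overlap. *Ly6e*, an interferon-induced membrane protein, went from 326 ± 56.1 to 227 ± 52.8 CPM (log2 fold change -0.53, adjusted p = 0.0120). *Clic4*, an intracellular chloride channel protein, went from 575 ± 38.0 to 487 ± 45.3 CPM (log2 fold change -0.24, adjusted p = 0.0307). *Sat1* was called with each library left out, *Ptp4a1*, *Anxa2* and *Ly6e* not without itaconate replicate C (adjusted p up to 0.0741 for *Anxa2*), and *Aqp8*, *Clic4* and *mt-Cytb* lost the call in 5 or 6 of the 8. *Tgm2* lost it with any 1 library left out (at most 0.165).

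Of the 573 called genes, 109 belonged to at least 1 of 45 gene lists drawn up for hepatocyte functions, stress responses and cell types. The lists, that of interferon genes included, were chosen with earlier results of these data known. The share called within a list may depend in part on that choice. Of the genes that rose, 198 were in none, and of those that fell, 266 were in none. The interferon list held 36 of the 344 genes that fell and 24 of the 75 that fell at least 1.5-fold, so that 308 and 51 lay outside it. The list is not complete, and genes outside it that fell include *Tgtp1*, *Gbp2*, *Ly6e* and *Cxcl10*, which interferons also induce. How many of the 308 and 51 are induced by interferons was not counted. Against a median log2 fold change of -0.0019 over all genes tested, the list medians ran from -0.64 for the interferon response to 0.21 for clock genes. For the counts of each list below, 1.96% of all genes tested rose, 2.95% fell, and 5900 of 11675 had a negative log2 fold change. Lists with 0 called members were acute phase proteins (25 genes tested, median 0.067), LXR and bile acid genes (20, 0.11), cytosolic ribosomal proteins (77, 0.011), aminoacyl-tRNA synthetases (18, 0.0013), heat shock proteins (23, -0.037), cytochrome P450 enzymes (41, 0.075), urea cycle and amino acid enzymes (42, 0.13), hepatocyte identity genes (36, 0.032), and the stellate cell and cholangiocyte markers.

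**Figure D4:**
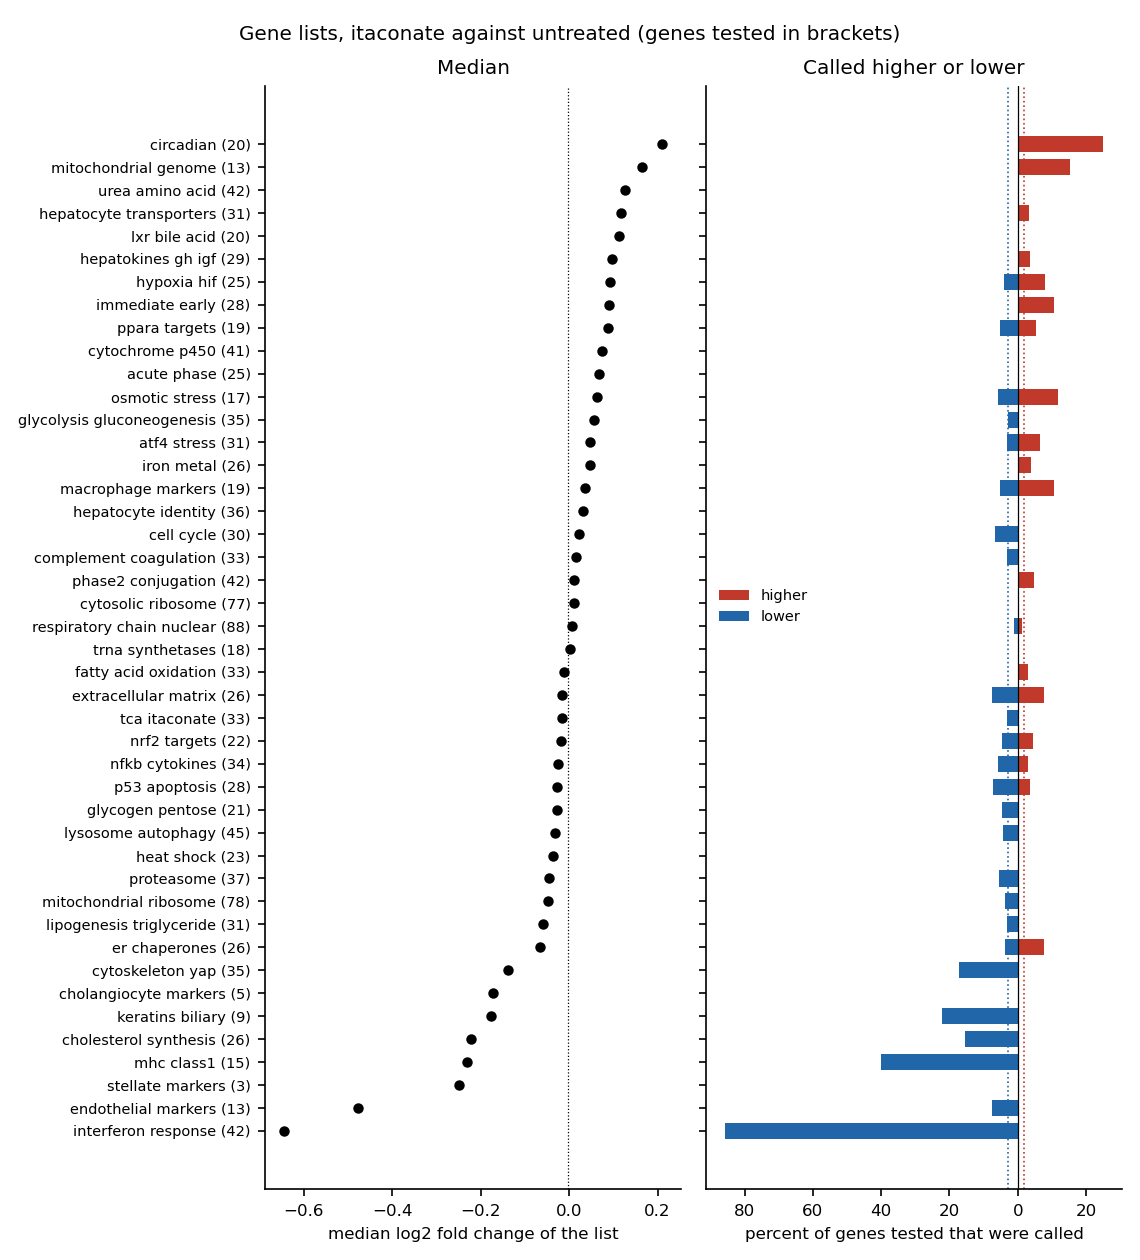
Left, the median log2 fold change of each gene list, with the median of all genes tested as a dotted line. Right, the percent of its genes tested that rose (red) or fell (blue), with the percent over all genes tested as dotted lines at 1.96 and 2.95. The interferon, MHC class I, cholesterol, cytoskeleton and clock lists lie farthest out among lists of 15 or more genes.

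Genes of the interferon response and of antigen presentation by MHC class I, which shows peptides from inside the cell to T cells, were lower together. All 42 interferon list members tested had a negative log2 fold change and 36 fell (85.7%, where 2.95% of all genes tested fell). *Ifit1*, an inhibitor of viral translation, was at 127, 66.5, 104 and 159 CPM in untreated and 56.2, 33.5, 39.1 and 58.9 CPM in itaconate-treated libraries (log2 fold change -1.26, standard error 0.086, adjusted p = 7.72e-07). *Oasl1* (from 144 ± 21.2 to 84.3 ± 10.7 CPM, log2 fold change -0.77, adjusted p = 4.24e-07), *Isg15* (a ubiquitin-like protein, log2 fold change -0.76, adjusted p = 1.31e-06) and *Cmpk2* (a mitochondrial nucleotide kinase, log2 fold change -0.79, adjusted p = 1.31e-06) are further examples, each called with every single library left out. In the MHC class I list all 15 genes tested were on the negative side and 6 fell (40%). *Tap1*, a subunit of the peptide transporter (ENSMUSG00000037321.17, plus strand of chromosome 17, 34187553 to 34197225), was at 94.8, 75.5, 78.9 and 99.8 CPM in untreated and 64.6, 51.7, 47.4 and 59.7 CPM in itaconate-treated libraries (log2 fold change -0.64, standard error 0.084, adjusted p = 0.000469), with no overlap. *Tapbp* (tapasin, which loads peptide) was at 222, 215, 231 and 265 CPM without and 193, 173, 175 and 203 CPM with itaconate, again with no overlap (log2 fold change -0.33, adjusted p = 0.0148). *H2-T23* (log2 fold change -0.26, adjusted p = 0.00268), *H2-T22* (log2 fold change -0.35, adjusted p = 0.0105), *Tap2* (log2 fold change -0.44, adjusted p = 0.0280) and *Tapbpl* (log2 fold change -0.29, adjusted p = 0.0366) also fell, the first pair being close relatives among which reads can be split wrongly. Among 37 proteasome genes the only called ones were *Psmb9* (from 16.4, 12.4, 9.50 and 12.8 CPM to 9.21, 6.32, 4.14 and 7.64 CPM, log2 fold change -0.91, adjusted p = 0.000609) and *Psmb8* (log2 fold change -0.41, adjusted p = 0.00854), the interferon-induced catalytic subunits of the immunoproteasome. *Tap1*, *H2-T23*, *Psmb9* and *Psmb8* were called with each library left out, *H2-T22* not without itaconate replicate C (0.0622), *Tapbp* in 4 of the 8, *Tap2* in 1 and *Tapbpl* in none.

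Beside these genes, the summed levels of macrophage markers (342 ± 49.7 CPM in untreated and 298 ± 39.4 CPM in itaconate-treated hepatocytes, SD, n = 4) and of endothelial markers (46.5 ± 9.41 and 36.5 ± 6.91 CPM) were lower in 4 of 4 letters. Neither difference passed a two-sided exact permutation test over the 8 libraries (p = 0.2 and 0.143). That test does not pair libraries by letter, so the spread between letters enters it, and a shift shared by the letters can be missed. Of 28 macrophage markers 19 were abundant enough to test, with a median log2 fold change of 0.037, 10 positive and 9 negative. Of these *Mmp12* and *Lyz2* rose. *Cd68*, a lysosomal protein and the most abundant of them, fell from 146, 182, 242 and 215 CPM to 125, 159.7, 194 and 183 CPM (log2 fold change -0.24, adjusted p = 0.0108), not called without itaconate replicate C (0.0548). Kupffer cell markers *Clec4f* and *Adgre1* had 33 to 103 counts per library. In the same list *Cd5l* had 270 to 462 and *Marco* 220 to 417 counts, and *Vsig4* had 12 to 40 and *Timd4* 4 to 21. Of 17 endothelial markers 13 were tested, with a median log2 fold change of -0.48 and 12 of 13 negative. Of these *Oit3* fell (2.34 ± 0.543 to 1.29 ± 0.253 CPM, log2 fold change -0.85, adjusted p = 0.0325), a call that ended in 7 of the 8 fits with 1 library left out. In such bulk samples fewer cells of a type and less RNA per cell cannot be told apart, and the part of these cells in the results was not tested.

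Among 34 genes of NF-kB signalling and cytokines, 1 rose and 2 fell, with a median of -0.026. *Cxcl10*, an interferon-induced chemokine for T cells, was at 171, 134, 156 and 172 CPM in untreated and 126, 109, 109 and 129 CPM in itaconate-treated libraries, without overlap (log2 fold change -0.41, standard error 0.045, adjusted p = 0.000117). *Csf1*, the growth factor of macrophages, fell from 21.4, 15.1, 14.4 and 19.3 CPM to 15.9, 10.4, 9.34 and 12.9 CPM (log2 fold change -0.53, adjusted p = 0.0327), lower in each letter. In contrast *Cxcl1*, a neutrophil chemokine, was at 62.3, 85.3, 48.3 and 47.4 CPM without and 90.7, 88.8, 63.9 and 71.5 CPM with itaconate (log2 fold change 0.40, adjusted p = 0.0335), with letter B nearly level and the other letters higher. *Cxcl10* was called with each library left out, *Csf1* and *Cxcl1* in only 2 of the 8, with adjusted p up to 0.1497 for *Csf1* without itaconate replicate C.

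The circadian clock runs on the activators *Clock* and *Arntl*, the repressors of the *Per* and *Cry* families, and nuclear receptors such as *Rora* and *Nr1d2* that drive or repress *Arntl*. Of 20 clock genes tested, 5 rose and 0 fell, where 1.96% of all genes tested rose and 2.95% fell. A positive log2 fold change was seen in 17, and the median was 0.21. *Cry1* was at 37.0, 42.0, 39.8 and 38.4 CPM in untreated and 45.7, 49.97, 49.9 and 47.2 CPM in itaconate-treated libraries (log2 fold change 0.29, standard error 0.056, adjusted p = 0.00776). *Rora* went from 78.9, 80.4, 81.9 and 83.7 CPM to 95.2, 94.4, 106 and 102 CPM (log2 fold change 0.29, standard error 0.047, adjusted p = 0.00232). *Nr1d2* (REV-ERB beta) went from 102, 92.2, 108 and 111 CPM to 128, 118, 145 and 136 CPM (log2 fold change 0.35, standard error 0.072, adjusted p = 0.0126). *Nfil3*, a repressor of clock output genes, was at 92.5, 92.6, 96.5 and 91.3 CPM without and 117, 107, 120.5 and 109 CPM with itaconate (log2 fold change 0.28, standard error 0.047, adjusted p = 0.00336). For these 4 genes every itaconate library was above every untreated one. *Clock* itself rose by 0.25 on the log2 scale (adjusted p = 0.0328). Its partner *Arntl* (log2 fold change 0.029, adjusted p = 0.919) and *Per2* (log2 fold change 0.0037, adjusted p = 0.988) were close to 0, and *Npas2*, a relative of *Clock*, was negative (log2 fold change -0.35, adjusted p = 0.219). With only the 8 libraries in the model 11 of the 20 were called, all higher, *Ciart* (log2 fold change 0.48 in the main model) and *Tef* (0.29) among them. *Cry1*, *Rora* and *Nfil3* were called with each library left out, *Nr1d2* not without itaconate replicate C (0.0718) or untreated replicate B, and *Clock* in 1 of the 8. When the libraries were collected in the day was not stated in the sources used here.

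**Figure D5:**
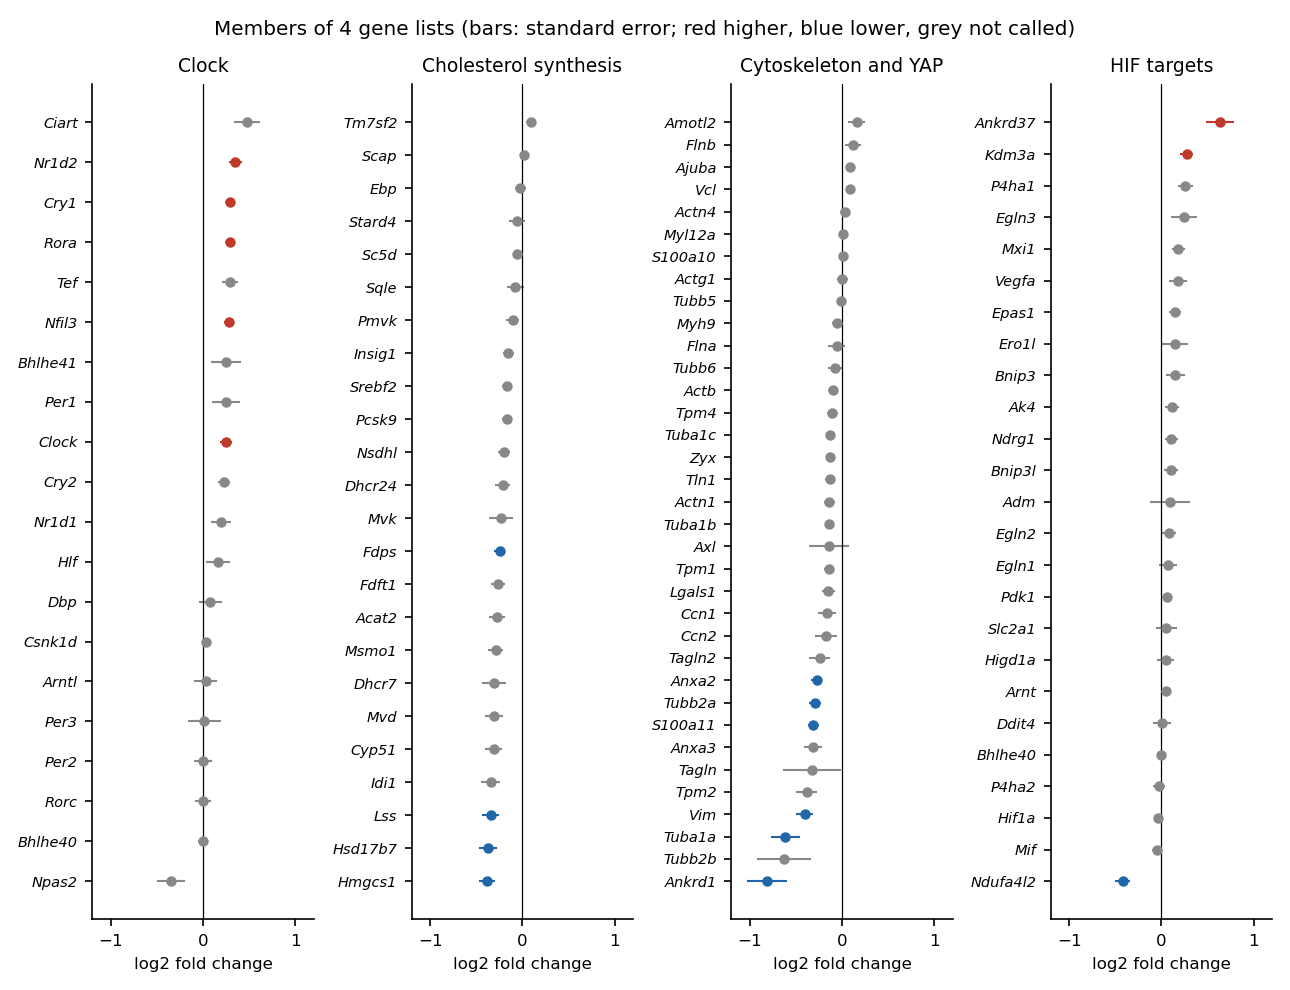
Log2 fold change with standard error of genes tested in the clock, cholesterol synthesis, cytoskeleton and HIF lists, with genes that rose in red, genes that fell in blue and genes not called in grey. Clock and HIF genes lie mostly to the right of 0 and cholesterol genes mostly to the left, with 5, 2 and 4 called genes in those directions.

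HIF is the transcription factor that cells use to respond to low oxygen. Of 25 HIF pathway genes tested, 20 were positive with a median of 0.092, and 2 rose, where 1.96% of all genes tested rose. Besides *Ankrd37*, *Kdm3a*, a histone demethylase, rose from 126, 133, 152 and 159 CPM to 154, 153, 204 and 179.7 CPM (log2 fold change 0.28, adjusted p = 0.0362). *Ndufa4l2*, also known as a HIF target, fell from 55.4, 57.8, 83.4 and 69.8 CPM to 38.1, 47.3, 59.3 and 54.3 CPM (log2 fold change -0.42, adjusted p = 0.00995), and was called with each library left out. The classic targets *Vegfa* (log2 fold change 0.18, adjusted p = 0.314) and *Slc2a1* (log2 fold change 0.054, adjusted p = 0.818) did not pass. *Kdm3a* kept its call in 1 of the 8 fits with 1 library left out.

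Of 35 glycolysis and gluconeogenesis genes, *Hk2* alone fell. Genes of glucose production such as *Pck1* (log2 fold change 0.29, adjusted p = 0.331) and *G6pc* (log2 fold change 0.32, adjusted p = 0.394) had positive values, and pyruvate kinase *Pklr* (log2 fold change -0.45, adjusted p = 0.0822) and *Hk1* (log2 fold change -0.37, adjusted p = 0.271) negative ones. None of these 4 passed. *Ppargc1a* (PGC-1 alpha, the coactivator of mitochondrial and gluconeogenic genes; ENSMUSG00000029167.13, minus strand of chromosome 5, 51454250 to 51567726) was at 3.51, 2.74, 3.32 and 3.35 CPM in untreated and 5.33, 4.69, 5.54 and 5.22 CPM in itaconate-treated libraries. This was a rise without overlap (log2 fold change 0.69, standard error 0.14, adjusted p = 0.0121), not called without itaconate replicate C (0.0596). Of the other PPAR alpha related genes *Creb3l3*, a hepatocyte transcription factor of lipid metabolism, fell from 101, 113, 105 and 93.3 CPM to 82.7, 95.5, 86.4 and 73.8 CPM (log2 fold change -0.29, adjusted p = 0.000343), a call kept with each library left out. Among 33 citric acid cycle and itaconate genes *Slc25a1*, the mitochondrial citrate carrier, fell (179.7 ± 8.34 to 158 ± 14.1 CPM, log2 fold change -0.19, adjusted p = 0.0207). The subunits of succinate dehydrogenase ranged from -0.050 for *Sdha* to 0.12 for *Sdhd*, none called. *Taldo1* of the pentose phosphate pathway fell by 0.20 on the log2 scale (adjusted p = 0.0150) and the fatty acid oxidation enzyme *Eci2* rose by 0.23 (adjusted p = 0.0321) as the only called member of its 33-gene list. The calls of *Slc25a1*, *Taldo1* and *Eci2* ended in 3, 4 and 6 of the 8 fits with 1 library left out.

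Cholesterol is made from acetyl-CoA through mevalonate, farnesyl diphosphate and lanosterol, and the genes of this route are driven together by SREBP2. Of 26 genes tested 24 were negative, with a median of -0.22, and 4 fell (15.4%, where 2.95% of all genes tested fell). *Hmgcs1*, which makes HMG-CoA, was at 299, 283, 225 and 275 CPM in untreated and 257, 211, 153 and 211 CPM in itaconate-treated libraries (log2 fold change -0.39, standard error 0.083, adjusted p = 0.0149). *Fdps* (farnesyl diphosphate synthase) went from 292, 292, 246 and 269 CPM to 266, 254, 187 and 223 CPM (log2 fold change -0.25, standard error 0.056, adjusted p = 0.0193). *Lss*, which closes the ring to lanosterol, went from 62.5, 62.1, 47.8 and 57.6 CPM to 56.1, 45.9, 34.7 and 45.2 CPM (log2 fold change -0.35, standard error 0.088, adjusted p = 0.0338). *Hsd17b7*, which acts on sterols after lanosterol, went from 24.8, 23.8, 19.6 and 22.9 CPM to 21.8, 17.4, 13.3 and 18.2 CPM (log2 fold change -0.37, standard error 0.098, adjusted p = 0.0394). Library A was highest among the itaconate-treated and C lowest in both groups for all 4, and the groups overlapped. *Idi1* (log2 fold change -0.35, adjusted p = 0.0547) and *Msmo1* (log2 fold change -0.29, adjusted p = 0.0527), which act before and after lanosterol, missed the threshold narrowly. In the model of 8 libraries 18 of the 26 were called, all lower. *Hmgcs1* kept its call in 4 of the 8 fits with 1 library left out, *Fdps* in 3, *Lss* and *Hsd17b7* in 1 each. In lipogenesis *Fads2*, the delta-6 desaturase, was the only called gene of 31 (447 ± 34.6 to 386 ± 24.2 CPM, log2 fold change -0.21, adjusted p = 0.0245). Its adjusted p was 0.0743 with an offset for GC content and length, and it kept its call in 2 of the 8.

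YAP is a coactivator of transcription regulated by mechanical tension, and hepatocytes in culture can take on genes of bile duct cells. Of 35 cytoskeleton and YAP genes 27 were negative, with a median of -0.14, and 6 fell, where 2.95% of all genes tested fell. *Vim* (vimentin, an intermediate filament of mesenchymal cells) was at 145, 87.9, 98.1 and 142 CPM in untreated and 114, 70.7, 80.1 and 88.9 CPM in itaconate-treated libraries (log2 fold change -0.41, standard error 0.092, adjusted p = 0.0195). *S100a11*, a calcium-binding partner of annexins, fell from 132, 121, 105 and 125 CPM to 107, 107, 77.8 and 98.4 CPM (log2 fold change -0.31, adjusted p = 0.00856), beside *Anxa2*. The tubulins *Tuba1a* (7.42 to 4.94 CPM, log2 fold change -0.61, adjusted p = 0.0338) and *Tubb2a* (171, 128, 147 and 159 to 138, 109, 110.4 and 138 CPM, log2 fold change -0.29, adjusted p = 0.0220) have close paralogs with which reads are shared. *Ankrd1*, a target of YAP, fell from 2.15 to 1.24 CPM (log2 fold change -0.82, adjusted p = 0.0419), whereas *Ccn1* (log2 fold change -0.16, adjusted p = 0.341) and *Ccn2* (log2 fold change -0.18, adjusted p = 0.407), other targets, did not pass. Actin genes *Actb* (log2 fold change -0.10, adjusted p = 0.259) and *Actg1* (log2 fold change 0.0055, adjusted p = 0.970) did not pass either. *Anxa2* and *S100a11* were not called without itaconate replicate C (0.0741 and 0.0548). *Vim* and *Tubb2a* lost their calls in 5 of the 8 fits with 1 library left out, *Ankrd1* in 7 and *Tuba1a* in all 8.

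*Cldn4* (ENSMUSG00000047501.3, minus strand of chromosome 5, 134945119 to 134946934) was at 134, 126, 121 and 123.4 CPM in untreated and 87.1, 86.7, 76.6 and 78.6 CPM in itaconate-treated libraries (log2 fold change -0.62, standard error 0.085, adjusted p = 0.000738). *Cd44*, the hyaluronan receptor (ENSMUSG00000005087.17, minus strand of chromosome 2, 102811141 to 102901665), was at 7.31, 6.42, 5.44 and 7.49 CPM without and 5.22, 3.07, 2.41 and 4.35 CPM with itaconate (log2 fold change -0.85, standard error 0.15, adjusted p = 0.00423). Neither gene overlapped between the groups, and both were called with each library left out. They were the 2 called members of the 9-gene keratin and biliary list, of which 6 were negative and 3 positive. The others were not called, among them *Krt8* (log2 fold change -0.011, adjusted p = 0.939) and *Sox9* (log2 fold change 0.0065, adjusted p = 0.959). The nearest to the threshold was *Sox4* (log2 fold change -0.40, adjusted p = 0.0565). In the extracellular matrix list of 26 genes 2 rose (*Mmp12* and *Olfml2b*) and 2 fell (*Lama3* and *Loxl2*). *Loxl2*, a collagen cross-linker, went from 20.1, 16.5, 23.3 and 24.7 CPM to 11.5, 14.6, 16.5 and 16.0 CPM (log2 fold change -0.52, adjusted p = 0.0253), a call kept in 2 of the 8 fits with 1 library left out.

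Of 17 osmotic stress genes 2 rose and 1 fell, where 1.96% of all genes tested rose and 2.95% fell. *Slc5a3*, the sodium-coupled importer of the osmolyte myo-inositol, went from 26.1, 33.6, 38.8 and 35.2 CPM to 33.0, 39.7, 50.3 and 44.3 CPM (log2 fold change 0.32, standard error 0.057, adjusted p = 0.00552). *Slc38a2*, a sodium-coupled importer of neutral amino acids, went from 213, 227, 255 and 274 CPM to 264, 257, 328 and 316 CPM (log2 fold change 0.27, standard error 0.039, adjusted p = 0.00115). Both were higher in each letter and called with each library left out. The creatine importer *Slc6a8* fell (62.8 ± 3.23 to 53.3 ± 2.09 CPM, log2 fold change -0.23, adjusted p = 0.0360), a call that ended whichever library was left out. *Akr1b3*, aldose reductase (log2 fold change -0.0080, adjusted p = 0.980), and *Slc6a12*, the betaine importer (log2 fold change 0.025, adjusted p = 0.850), did not pass. Neither did *Nfat5*, the factor that drives these genes (log2 fold change 0.12, adjusted p = 0.539).

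Of 31 ATF4 stress genes *Slc38a2* and *Cebpg* rose (log2 fold change 0.18, adjusted p = 0.0266 for the latter). *Slc7a11*, the cystine importer and also a target of Nrf2, fell (76.3, 85.6, 53.2 and 68.8 to 68.2, 67.8, 42.9 and 58.6 CPM, log2 fold change -0.26, adjusted p = 0.0317). *Atf4* (log2 fold change 0.046, adjusted p = 0.611), *Ddit3* (log2 fold change 0.064, adjusted p = 0.708) and *Trib3* (log2 fold change 0.047, adjusted p = 0.637) were near 0. *Osgin1* was the other called gene of 22 Nrf2 targets, and rose (601, 528, 564 and 549 to 689, 623, 662 and 638 CPM, log2 fold change 0.22, adjusted p = 0.0156). Of the sensors of the unfolded protein response *Atf6* rose from 107, 117, 120.2 and 142 to 128, 138, 152 and 156 CPM (log2 fold change 0.24, adjusted p = 0.0134). *Ern1*, another, rose from 98.0, 93.4, 90.9 and 92.9 to 113, 100.4, 113 and 104 CPM (log2 fold change 0.20, adjusted p = 0.0150). *Creld2*, a protein of the endoplasmic reticulum, fell (log2 fold change -0.29, adjusted p = 0.0245), and 19 of the 26 genes of this list were negative. *Plk3*, a stress kinase, rose (34.7, 32.9, 31.4 and 26.1 to 44.5, 39.4, 42.0 and 33.7 CPM, log2 fold change 0.35, adjusted p = 0.00809). Of the p53 targets *Ccng1* fell (87.8, 90.8, 90.6 and 111 to 71.0, 69.6, 66.6 and 90.6 CPM, log2 fold change -0.35, adjusted p = 0.00983). The death receptor *Tnfrsf10b* fell as well (23.2, 22.8, 21.8 and 27.4 to 17.2, 17.7, 15.8 and 20.6 CPM, log2 fold change -0.41, adjusted p = 0.0140). Of the 28 immediate early genes 3 rose and 0 fell, against 1.96% and 2.95% of all genes tested. *Dusp6*, the phosphatase of ERK, rose from 59.0, 63.0, 57.4 and 61.1 to 72.8, 75.8, 69.1 and 73.1 CPM (log2 fold change 0.27, adjusted p = 0.0171). *Maff*, a small Maf protein, rose from 169.9, 165, 174 and 166 to 204, 207, 202 and 196 CPM (log2 fold change 0.26, adjusted p = 0.0311), and *Dusp8* rose too (log2 fold change 0.19, adjusted p = 0.0366). *Plk3* was called with each library left out, *Ccng1* not without itaconate replicate C (0.0567), *Atf6* and *Ern1* in 6 of the 8, *Osgin1* and *Tnfrsf10b* in 5, *Cebpg* and *Dusp6* in 3, *Slc7a11* and *Creld2* in 2, *Dusp8* in 1 and *Maff* in none.

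Of the 13 protein-coding genes of the mitochondrial genome 11 were positive and 2 rose. One was *mt-Cytb* (log2 fold change 0.28, adjusted p = 0.0341). *mt-Atp8*, a short ATP synthase gene with nuclear copies that can share its reads, rose from 615, 524, 458 and 589.9 to 760.2, 626, 608 and 743 CPM (log2 fold change 0.32, adjusted p = 0.0433). With an offset for GC content and length neither was called (adjusted p = 0.0714 and 0.681), and with 1 library left out *mt-Cytb* was called in 2 of the 8 fits and *mt-Atp8* in none. The share of all counts on the mitochondrial genome was 3.78 ± 0.243% in untreated and 4.16 ± 0.618% in itaconate-treated hepatocytes (SD, n = 4; two-sided exact permutation test, p = 0.314), higher in 3 letters and lower in B. Of 88 nuclear genes of the respiratory chain *Ndufaf4*, an assembly factor of complex I, rose (log2 fold change 0.25, adjusted p = 0.0270) and *Ndufa4l2* fell, with a median of 0.0062. Among 78 mitochondrial ribosomal proteins 61 were negative with a median of -0.048. Of the 78, 3 fell (3.85%), close to the 2.95% over all genes tested. *Mrps2* fell from 36.6 ± 2.14 to 29.4 ± 3.88 CPM (log2 fold change -0.32, adjusted p = 0.00460). *Mrps5* (log2 fold change -0.17, adjusted p = 0.0340) and *Mrpl10* (log2 fold change -0.17, adjusted p = 0.0431) were the others. *Mrps2* was called with each library left out, *Ndufaf4* in 3 of the 8, *Mrps5* in 2 and *Mrpl10* in none.

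No gene of the hepatocyte identity list was called among 36. *Alb* (log2 fold change 0.026, adjusted p = 0.828), *Hnf4a* (log2 fold change -0.0066, adjusted p = 0.964) and *Ttr* (log2 fold change 0.033, adjusted p = 0.803) were near 0. Others lay further out, from -0.37 for *Prox1* to 0.39 for *Nr1i3*, with 25 positive and 11 negative. The model of 8 libraries called 6 of the 36 higher and 1 lower, where it called 8.1% of all genes tested higher and 7.82% lower. The urea cycle and amino acid list had 33 of 42 genes on the positive side and none called, whereas 22 were called higher and 3 lower in the model of 8 libraries. Of 31 hepatocyte transporters *Aqp8* rose, and of 42 conjugating enzymes 2 rose, both without overlap. *Sult1d1*, a sulfotransferase, rose from 38.8, 42.1, 37.1 and 43.5 to 49.9, 52.2, 52.1 and 56.9 CPM (log2 fold change 0.39, adjusted p = 0.0366). *Gsta4*, a glutathione transferase of lipid aldehydes, rose from 227, 215, 239.8 and 221 to 254, 241, 271 and 249 CPM (log2 fold change 0.17, adjusted p = 0.0281). Of the secreted factors *Nrg4*, a ligand of ErbB receptors, rose from 34.3, 44.0, 28.3 and 29.6 CPM to 45.6, 57.1, 33.9 and 33.8 CPM (log2 fold change 0.31, adjusted p = 0.0180). *Tfrc*, the transferrin receptor for iron uptake, rose from 55.0, 56.8, 52.4 and 56.1 CPM to 73.7, 65.1, 63.7 and 67.0 CPM (log2 fold change 0.29, adjusted p = 0.0147). *F11* (coagulation factor XI, log2 fold change -0.24, adjusted p = 0.0259) was the only called gene of 33 for complement and coagulation, and was lower. *Npc2*, a carrier of cholesterol (log2 fold change -0.16, adjusted p = 0.0362), and *Tcirg1*, a proton pump subunit (log2 fold change -0.37, adjusted p = 0.0419), were the called ones of 45 for lysosomes, both lower. *Mcm4*, a replication helicase subunit, fell (log2 fold change -0.22, adjusted p = 0.0345) beside *Ccng1* among 30 cell cycle genes. With 1 library left out *Tfrc* was called in 5 of the 8 fits, *Nrg4* in 4, *Gsta4* and *Npc2* in 2, *F11*, *Tcirg1* and *Mcm4* in 1 and *Sult1d1* in none.

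Genes that rose had, at the median, longer exons and a lower GC content than genes that fell, given here without a test. Median summed exon length was 6722 bases for genes that rose, 3916 for genes that fell and 4334 for all genes tested, and median GC content of the longest transcript was 45.4%, 51.0% and 49.4%. Genes with a *Zfp* name (zinc finger proteins) made up 11 of the 229 that rose and 0 of the 344 that fell, against 318 of all 11675. Protein-coding genes were 95.6%, 97.7% and 94.5% of the 3 sets. When each library's trend over GC content and length was removed by an offset, an alternative added after the data were seen, 555 genes were called, 273 higher and 282 lower, and 468 of the 573 (81.7%) were among them. The medians were then 5347 bases and 48.3% for genes that rose and 4149 bases and 49.998% for genes that fell.

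In hepatocytes given lipid as well, the same treatment called 301 genes (2.58%). These comparisons share no library, but they come from the same fit of 16 libraries, with a shared estimate of the spread and the same replicate letters. They are therefore not fully independent. Of the 229 genes that rose without lipid, 212 had a positive log2 fold change with lipid (median 0.13) and 39 were also called, and of the 344 that fell, 316 were negative (median -0.15) and 51 were also called. The share of all genes tested with the same sign in both comparisons was not counted. *Hk2* had a like log2 fold change without and with lipid (-0.77 and -0.77, adjusted p with lipid = 0.0122), as did *Agfg2* (0.52 and 0.52, 0.00448). *Dppa3* was at 1.04 with lipid (adjusted p = 0.00244) and *Nrg4* at 0.77 (6.77e-05), whereas *Tap1* (-0.15, 0.375), *Cry1* (0.11, 0.333) and *Slc5a3* (0.092, 0.426) were not called with lipid. The difference itself was tested for every gene, and 1 gene (0.00857%) passed an adjusted p of 0.05. It was *Cxcl10*, with a log2 fold change of -0.41 without and 0.053 with lipid and a difference of 0.47 (adjusted p = 0.0299). At an unadjusted p under 0.05 there were 1004 such genes, 227 of them among the 573. The 573 were picked for their change without lipid, and that change also enters the difference. Their count among the 1004 and their smaller medians with lipid can therefore come from this choice. The count past the adjusted threshold became 0 when the letter was dropped from the model, 4 without lipid + itaconate replicate B, and 0 to 2 with an untreated or itaconate library left out.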

How the data were processed

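Each of the 16 libraries of the series was made from polyadenylated RNA with a stranded ligation kit and sequenced on an Illumina instrument (4 groups, 4 libraries each). Per the study's methods and processing notes, the authors demultiplexed reads with bcl2fastq 2.20, used Cutadapt 1.18 to trim and STAR 2.7.0f to align to mm10, checked libraries with Picard 2.18.26 and estimated gene counts with RSEM 1.3.1. The values deposited by the authors are RSEM's expected counts for 55450 genes, not normalized; 5.41% of values are not whole, since reads that fit several genes are divided between them. Later batch removal and tests of the authors are not part of these values. Total counts and their range stand in the results, and a gene at 1 CPM rests on 22.3 to 35.5 counts per library. Gene positions are from GENCODE M21 (GRCm38), where all 55450 identifiers were found. No column of per-sample values was left unmapped.

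Expected counts were rounded, and the 11675 genes that averaged 1 CPM or more across the 16 libraries were tested. After TMM scaling, edgeR 4.0.16 (R 4.3.3) was fitted to all 16 libraries with terms for treatment and replicate letter, and the quasi-likelihood test was adjusted by Benjamini-Hochberg with a threshold of 0.05. The letters were checked as pairs by the correlation of deviations from the group means: same-letter libraries gave 0.256 to 0.469 in all 4 pairs, and other letters -0.436 to 0.0968 in 12. The letters come from the sample titles, which do not explain them, and the correlation is only a check on the pairing. Deviations from a group mean sum to 0, so positive same-letter values bring negative ones among other letters. Letters took 57.0% and treatment 18.2% of the sum of squares within the 8 libraries. Noise alone would give each term a share, and a larger one to the letters, which have more levels. These shares are therefore not sizes of an effect. Genes are named by a rule: the 12 largest rises and 12 largest falls among called genes with at least 5 CPM, all letters in 1 direction, a symbol of their own and no place in the fatty acid, Nrf2 or interferon lists, the 5 largest gains and losses in CPM among these, and up to 4 called members of each list. Other genes named for contrast, such as members that were not called, were chosen after their values were seen. Genes that met a rule but are not named are not reported here. Members and lists were chosen with earlier results of these data known. Alternatives were no letter term, RLE scaling, other filters, 8 or 15 libraries, DESeq2 1.42.0, limma-trend (limma 3.58.1), each library left out and, added after the data were seen, an offset for GC content and length. Single values were compared by exact permutation of the 8 libraries, without pairing by letter.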

Additional observations from a re-analysis of the deposited data

Results flagged for a closer look

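In the groups of 4 libraries, 1 library stood apart from the other 3 by Dixon's ratio in 7 of 214 groups examined, where chance gives 10.7. *Ccng1* had 111 CPM in untreated replicate D against 87.8 to 90.8 in the others, *Depdc7* 15.2 CPM in untreated replicate B against 16.2 to 16.3, *Dusp8* 41.1 CPM in itaconate replicate B against 50.4 to 51.6, and *Tgm2* 2679 CPM in itaconate replicate C against 2293 to 2339. Untreated replicate A had the lowest total, 22346049 counts against 27608254 to 28619798, and the fewest genes with a count, 17593 against 18239 to 18308. The share of counts on the mitochondrial genome was 4.14% in untreated replicate D against 3.63 to 3.70% in the other untreated libraries. *Cxcl10* was the gene whose response to itaconate differed with lipid by a test of the difference itself, 0.47 on the log2 scale (adjusted p = 0.0299), with log2 fold changes of -0.41 without and 0.053 with lipid.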

How the results depend on the processing

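Against 573 genes changed, 229 higher and 344 lower, the fit without the replicate block gave 23, 6 and 17, no filter on low counts 1091, 542 and 549, the 8 libraries alone 1859, 946 and 913, a change of at least 1.5-fold besides 82, 7 and 75, and groups that do not overlap, with no test, 879 genes, 428 of them higher. Leaving out 1 library at a time gave 149 to 394 genes, 39 to 166 higher and 110 to 239 lower, with the fewest without itaconate replicate C. Genes called higher numbered 347 without lipid + itaconate replicate B and 355 with DESeq2. The split moved toward higher with the GC and length offset (273 higher, 282 lower) and in the 8 libraries. The cause of these differences was not tested, but the 8-library model has a smaller estimated spread (coefficient of biological variation 0.0530 with 3 residual degrees of freedom, against 0.0764 with 9).

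Of the 97 genes named by the rule, all picked for passing in the main fit to the same data, none changed direction in any alternative. With 15 libraries, with DESeq2 and with 8 libraries all 97 stayed called, with RLE 96, limma-trend 94, no filter 93, filterByExpr 92 and the GC and length offset 91, where *Fads2* (adjusted p = 0.0743), *Tgm2* (0.124), *Mrpl10* (0.0646), *Npc2* (0.0837), *mt-Atp8* (0.681) and *mt-Cytb* (0.0714) did not pass. Without the replicate block 6 stayed called, and with 1 library left out 36 to 73. The medians of the fatty acid, citric acid cycle and matrix lists, all near 0, changed sign with the offset. The number of genes whose response differed with lipid, 1, was 0 without the replicate block, 2 with RLE, 2 with filterByExpr, 231 with no filter, 4 without lipid + itaconate replicate B and 0 to 2 with 1 library left out. Depth limits weak genes most, since a gene at the filter's 1 CPM rests on 22.3 to 35.5 counts per library.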
